A study of Mus musculus with 6 samples.

Results

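Integrins, cadherins, claudins, nectins, tetraspanins and the other receptors through which cells hold on to each other and to matrix were compared between 2 mouse ovarian cancer lines. A gene was taken as a member if its symbol in the deposited table belonged to one of these families, that is integrin subunits (Itga, Itgb), numbered cadherins, protocadherins, claudins, nectins (listed under the older name Pvrl), Cadm, junctional adhesion molecules, Amigo, desmosomal proteins and plakophilins, connexins, tetraspanins, and single receptors such as Alcam, Epcam and Mcam. Cdh1, E-cadherin, was left out. The rule found 55 of the 7320 genes in the table, and the rule itself reads only the symbol, although a gene is in the table only if its authors had called it different between these lines.

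ID8 cells are a clonal line of mouse ovarian surface epithelium of the C57Bl6 strain, immortalized without an introduced oncogene. KMF cells, also named ID8-IP, descend from ID8 cells recovered from the peritoneal fluid of mice and expanded without attachment, and carry DNA gains that include Myc and the gene of focal adhesion kinase. Both lines were grown without any treatment as tumorspheres, free-floating clusters in serum-free 3D medium, for 5 days, and 3 RNA libraries of each were made from cultures at different passages. ID8 libraries came from passages 23, 24 and 35 and KMF libraries from passages 14, 17 and 22, so the lowest ID8 passage lies above the highest KMF passage, and line and passage cannot be fully told apart. Each line is a single derivation, and p-values measure the spread between cultures of that line.

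Cells in a tumorsphere have no substrate and hold together through their neighbours. Integrins are pairs of an alpha and a beta subunit that bind matrix and signal through focal adhesion kinase and its relatives. Cadherins and nectins join neighbouring cells and connect through catenins and afadin to actin, desmosomal cadherins connect through plakoglobin and plakophilins to intermediate filaments, claudins and junctional adhesion molecules form the tight junction seal, and tetraspanins organize integrins and other receptors in the membrane. Ovarian surface epithelium is known for N-cadherin in place of the E-cadherin of most epithelia.

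Libraries held 23108407 to 33212313 fragments on genes, of which listed genes took 52.8% to 55.9%. The table lists only genes that its authors had already called different between the lines, so a call among the members is not independent evidence of a difference. Of all 6967 genes that passed the filter on low counts, 92.9% were called by edgeR's quasi-likelihood test at an adjusted p under 0.05. Of 10 markers of ovarian surface epithelium, 6 were listed. Msln, mesothelin, was higher in KMF (34.3 to 91.6 FPKM on average), Wt1, Krt7, Upk3b and Cdh2 were lower, and Muc16 was not fitted. Listed leukocyte markers (1 of 11, Cd74) summed to 0.857 to 1.59 FPKM in ID8 and 0.215 to 0.391 FPKM in KMF. Listed endothelial markers (4 of 8) summed to 30.4 to 52.0 FPKM in ID8 and 48.0 to 71.6 FPKM in KMF, with Tek higher and Esam lower. Listed fibroblast markers (4 of 8, all lower in KMF) summed to 77.3 to 107 FPKM in ID8 and 13.5 to 25.9 FPKM in KMF, and their part in the results was not tested. Markers that the table does not list were not analysed. In bulk RNA, fewer cells of a type and less RNA per cell cannot be told apart.

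To show where members that differ strongly start, the 250 bases before the RefSeq start site (assembly GRCm38.p6) were read for members whose window lies outside the listed gene body. Shown are the integrin with the largest difference (Itga10), desmoplakin, which was higher in KMF (Dsp), and 2 receptors that were lower (Epcam and Pcdh17), each 5′ to 3′ on the strand of its gene. Capitals mark a match to 1 of 4 motifs searched on both strands, which were CAGGTG (an E-box of the kind bound by Snail and Zeb repressors), TGANTCA (AP-1), CTTTGAT (TCF/LEF) and GGAATG (TEAD).
Itga10, chr3:96645334-96645583, plus strand: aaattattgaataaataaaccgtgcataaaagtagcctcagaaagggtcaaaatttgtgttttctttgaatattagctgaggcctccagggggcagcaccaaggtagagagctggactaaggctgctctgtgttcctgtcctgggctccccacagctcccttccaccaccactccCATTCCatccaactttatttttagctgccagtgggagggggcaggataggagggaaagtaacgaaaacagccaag
Dsp, chr13:38151044-38151293, plus strand: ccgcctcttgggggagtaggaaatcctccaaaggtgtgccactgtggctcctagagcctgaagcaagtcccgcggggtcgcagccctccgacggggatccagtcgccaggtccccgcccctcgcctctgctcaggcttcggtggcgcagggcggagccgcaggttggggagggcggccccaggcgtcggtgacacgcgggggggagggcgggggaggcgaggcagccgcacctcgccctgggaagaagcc
Epcam, chr17:87635729-87635978, plus strand: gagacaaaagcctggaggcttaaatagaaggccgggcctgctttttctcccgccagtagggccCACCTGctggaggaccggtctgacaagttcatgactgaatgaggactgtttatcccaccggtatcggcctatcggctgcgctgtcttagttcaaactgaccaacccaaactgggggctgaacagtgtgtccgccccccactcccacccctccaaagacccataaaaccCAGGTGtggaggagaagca
Pcdh17, chr14:84443313-84443562, plus strand: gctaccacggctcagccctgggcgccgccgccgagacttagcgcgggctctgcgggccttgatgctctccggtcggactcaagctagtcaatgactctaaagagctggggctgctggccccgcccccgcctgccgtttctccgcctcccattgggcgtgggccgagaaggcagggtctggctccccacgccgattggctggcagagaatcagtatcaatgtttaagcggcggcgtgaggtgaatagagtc
In Itga10 the capitals mark CATTCC, the TEAD letters on the other strand, beginning 75 bases before the start. Epcam holds CACCTG beginning 187 bases and CAGGTG beginning 19 bases before its start. Dsp and Pcdh17 hold none of the 4 motifs in this window.

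A promoter was found for 44 of the 55 members, and 36 of these were called, 14 higher and 22 lower in KMF. The E-box was present in 4 of the 14 higher members (Cd9, Mcam, Tspan1 and Tspan4) and in 5 of the 22 lower members (Alcam, Epcam, F11r, Itgb8 and Pvrl2), against 17.2% of all 32851 promoters of the same length. The AP-1 letters stood in none of the higher and 2 of the lower members (Cldn15 and F11r), against 6.75% of all promoters. TCF/LEF letters were in no called member, against 3.21%, and TEAD letters were in Itga10, Cldn15 and Cldn2, against 12.6%. No motif's letters are contained in another's, and a match describes the sequence only.

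Adhesion genes differed in both directions between the lines, with more members lower than higher in KMF. Of the 55 members, 47 passed the filter on low counts. By edgeR's quasi-likelihood test, 19 of the 47 were higher in KMF (40.4%, against 45.4% of all fitted genes), 27 were lower (57.4%, against 47.5%), and 1, Tspan13, was not called. Differences of at least 2-fold were found upward in 11 members (23.4%, against 18.0% of all fitted genes) and downward in 19 (40.4%, against 22.5%). A member low in KMF could pass the filter through ID8 alone, and among the 41 members with at least 10 counts in every library, which leaves out members at few counts in KMF, 18 were higher and 21 lower (43.9% and 51.2%, against 41.8% and 46.1% of all genes so filtered). At least 2-fold, 11 of these were higher and 13 lower (26.8% and 31.7%, against 15.4% and 16.9%). The median log2 fold change of the fitted members was -0.70, and that of all fitted genes was -0.23. The median absolute log2 fold change was 1.31 among the members and 0.79 among all fitted genes. FPKM, the fragments of a gene scaled to its length and to the library total, did not overlap between the lines for 45 of the 47 fitted members, against 96.6% of all fitted genes.

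**Figure D1:**
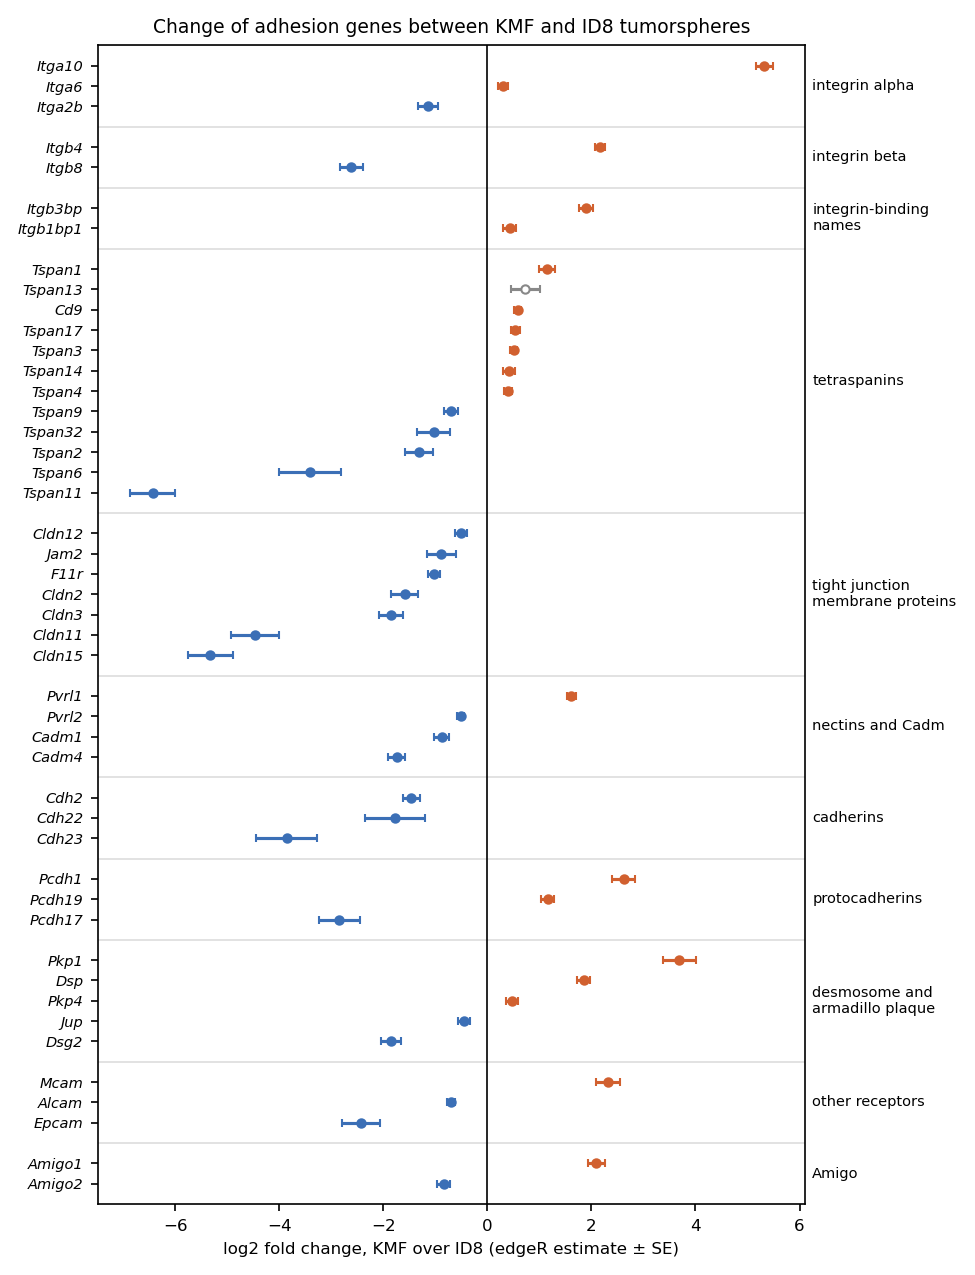
Log2 fold change of KMF over ID8 (horizontal axis, edgeR, bars are standard errors, 3 libraries of each line) for fitted members, grouped by role. Orange points are called higher in KMF, blue points called lower and the open grey point, Tspan13, is not called. All 7 fitted tight junction membrane genes and all 3 fitted cadherins lie below 0, while tetraspanins and desmosome genes lie on both sides. Among the tight junction genes and cadherins, Cldn11, Cldn15, Cdh22 and Cdh23 could pass the filter through ID8 alone.

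By level, 33 members had a mean FPKM above 1 in both lines, 9 in ID8 alone, 2 in KMF alone (Itga10 and Mcam) and 11 in neither. At a threshold of 2, 6 members passed in ID8 alone and 5 in KMF alone. The same counts were not made over all listed genes, so no conclusion on direction is drawn from them. The member genes with the highest summed means were Cd9, Itga6 and F11r. ID8 replicate 3, of passage 35, was the lowest of the 3 ID8 libraries for 19 of the 47 fitted members (40.4%, against 37.4% of all fitted genes). With passage as a covariate, 16 members were called higher and 23 lower. Cdh22, Cldn12, Itga6, Itgb1bp1, Jam2, Pkp4 and Tspan32 lost the call in that fit.

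Among the integrin alpha subunits, Itga10 was low in ID8 and plentiful in KMF. Itga10, the alpha subunit of a collagen receptor best known from cartilage (ENSMUSG00000090210, chromosome 3, 96645584 to 96664519), measured 0.666, 0.600 and 0.541 FPKM in ID8 replicates 1 to 3 and 20.3, 28.0 and 22.3 FPKM in KMF replicates 1 to 3. Every KMF library thus lay far above every ID8 library, and the gene was 40.1-fold higher in KMF (log2 fold change 5.32 ± 0.16 SE, adjusted p = 3.09e-06, edgeR). In GENCODE M21, 33.5% of the exon bases of Itga10 are shared with Gm42957, a protein-coding model on the same strand, and the division of reads between them is uncertain. The upstream sequence of Itga10 printed above ends at the base before the listed start.

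Itga6, the laminin-binding alpha subunit, was the most abundant listed integrin in both lines. Its level was 215, 195 and 237 FPKM in ID8 and 273, 252 and 249.7 FPKM in KMF, which is 98.7% of the summed FPKM of the listed alpha subunits in ID8 and 91.3% in KMF. The lines did not overlap, but the difference was small at 1.23-fold (log2 fold change 0.30 ± 0.09 SE, adjusted p = 0.0327, edgeR). It lost its call without ID8 replicate 1, ID8 replicate 2 or any 1 of the 3 KMF replicates (adjusted p 0.0545 to 0.106), and the adjusted p ranged from 0.0131 to 0.197 over all alternatives. Itga2b, the alpha subunit of the platelet fibrinogen receptor, differed the other way, from 2.16 ± 0.242 FPKM (SD, n = 3 libraries) in ID8 to 0.950 ± 0.137 FPKM in KMF, 2.21-fold lower (adjusted p = 0.00234 by edgeR). Itga11, a further collagen-binding subunit, and Itgal, the alpha subunit of the leukocyte integrin LFA-1, did not pass the filter on low counts. Itga11 had 30 counts over the ID8 libraries and 5 over the KMF libraries, a depth-scaled ratio of 6.05 (95% exact interval 2.32 to 20.0). Itgal had 20 counts in ID8 and 0 in KMF, at least 6.72-fold lower against a floor of 3 counts over the group.

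The listed beta subunits differed in opposite directions. Itgb4, which pairs with Itga6 in the laminin receptor of hemidesmosomes (ENSMUSG00000020758, chromosome 11, 115974709 to 116008412), measured 12.3, 14.6 and 11.9 FPKM in ID8 and 57.1, 57.5 and 54.4 FPKM in KMF. The KMF libraries lay close together and well above those of ID8, a 4.48-fold difference (log2 fold change 2.16 ± 0.10 SE, adjusted p = 1.07e-05, edgeR). Itgb8, the beta subunit of the integrin that binds latent TGF-beta, measured 3.23, 3.95 and 5.43 FPKM in ID8 and 0.727, 0.711 and 0.570 FPKM in KMF. It was 6.12-fold lower in KMF with no overlap (log2 fold change -2.61 ± 0.22 SE, adjusted p = 8.2e-05, edgeR). Within single libraries, Itga6 exceeded Itgb4 in FPKM by 17.4, 13.4 and 20.0 times in ID8 and by 4.77, 4.39 and 4.59 times in KMF, so both lines held an excess of the alpha transcript and the excess was smaller in every KMF library. Other subunits, among them Itgb1, are outside the table and were not analysed here.

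Itgb1bp1 and Itgb3bp share the integrin name without being receptors. Itgb1bp1, a cytoplasmic regulator of beta1 integrin (ICAP-1), was 6.36 ± 0.356 FPKM in ID8 and 8.32 ± 0.353 FPKM in KMF (adjusted p = 0.0242, edgeR), and was not called without ID8 replicate 1, ID8 replicate 3, KMF replicate 1 or KMF replicate 2 (adjusted p 0.0533 to 0.0952; 0.00971 to 0.341 over all alternatives). Itgb3bp, a centromere protein, was 3.71-fold higher in KMF (2.35 ± 0.0327 to 8.49 ± 1.25 FPKM, adjusted p = 4.43e-05, edgeR).

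Of the 5 desmosome and armadillo genes, 3 were higher in KMF (Pkp1, Dsp and Pkp4, against 45.4% of all fitted genes) and 2 were lower (Dsg2 and Jup, against 47.5%), a division near that of all fitted genes. Dsp, desmoplakin, which ties the plaque to intermediate filaments (ENSMUSG00000054889, chromosome 13, 38151328 to 38198577), measured 3.86, 3.01 and 2.92 FPKM in ID8 and 12.0, 10.3 and 12.1 FPKM in KMF. Pkp1, plakophilin 1, which binds desmoplakin in the plaque (ENSMUSG00000026413, chromosome 1, 135871395 to 135919207), measured 1.44, 2.45 and 0.918 FPKM in ID8 and 20.1, 18.8 and 21.4 FPKM in KMF. Neither gene overlapped between the lines, Dsp being 3.61-fold higher in KMF (log2 fold change 1.85 ± 0.13 SE, adjusted p = 3.94e-05) and Pkp1 12.9-fold higher (3.69 ± 0.31 SE, adjusted p = 9.03e-05), both by edgeR. Dsg2, the desmosomal cadherin desmoglein 2, measured 11.8, 11.2 and 10.8 FPKM in ID8 and 3.61, 3.31 and 2.16 FPKM in KMF, 3.62-fold lower with no overlap (log2 fold change -1.86 ± 0.19 SE, adjusted p = 0.000199, edgeR). The ratio of Dsp to Dsg2 therefore lay below 1 in every ID8 library (0.327, 0.269 and 0.271) and above 1 in every KMF library (3.32, 3.10 and 5.61).

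Jup, plakoglobin, a relative of beta-catenin that serves both desmosomes and adherens junctions, remained the most abundant of these transcripts, at 136 ± 2.02 FPKM in ID8 and 96.8 ± 14.0 FPKM in KMF (adjusted p = 0.013, edgeR). The call for Jup was lost without KMF replicate 2 or KMF replicate 3 (adjusted p 0.0625 and 0.0635; 0.000615 to 0.0635 over all alternatives). Pkp4, an armadillo protein of adherens junctions, was modestly higher in KMF (12.5 ± 0.736 to 16.9 ± 2.62 FPKM, adjusted p = 0.0132, edgeR), a call lost with passage as a covariate (adjusted p = 0.0941; 0.00457 to 0.0941 over all alternatives). Jup exceeded Pkp1 by 54.8 to 147 times in the ID8 libraries and by 4.16 to 5.62 times in the KMF libraries.

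**Figure D2:**
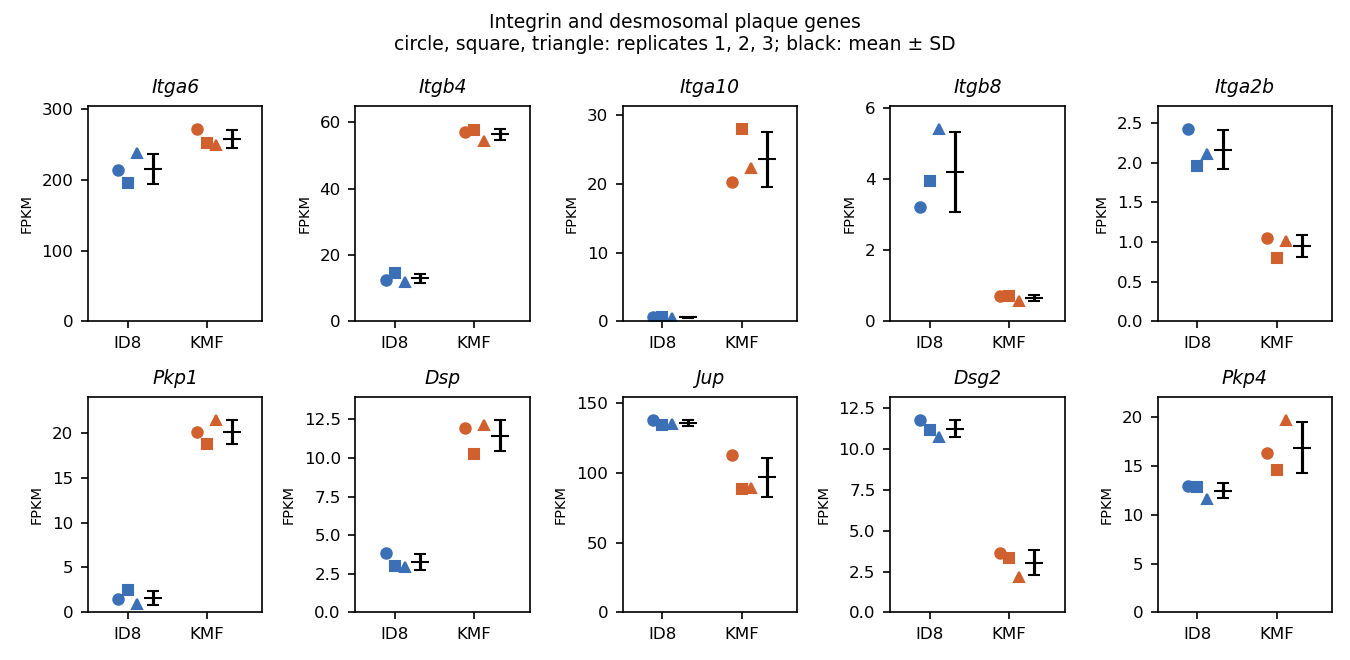
FPKM (vertical axes, linear from 0) of integrin and desmosome genes in each library of ID8 (blue) and KMF (orange), with circle, square and triangle for replicates 1, 2 and 3 and black bars for mean ± SD. Itga10, Itgb4, Dsp and Pkp1 are higher in all 3 KMF libraries than in any ID8 library, and Itgb8 and Dsg2 are lower in all 3.

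Fitted tight junction membrane genes were all lower in KMF. Of 8 listed members 7 were fitted and all 7 were lower (against 47.5% of all fitted genes), 5 of them at least 2-fold (against 22.5%). Their median log2 fold change was -1.59. Cldn11 and Cldn15 could pass the filter through ID8 alone, so no conclusion on the group is drawn from this count. Cldn2, Cldn3, Cldn12, F11r and Jam2 had at least 10 counts in every library, and each was called lower. The summed FPKM of the listed members was 383 ± 31.1 in ID8 and 167 ± 11.6 in KMF. F11r, junctional adhesion molecule A (ENSMUSG00000038235, chromosome 1, 171437535 to 171464603), made up 68.6% of that sum in ID8 and 74.8% in KMF. It measured 245, 229 and 314 FPKM in ID8 and 135, 121 and 119.7 FPKM in KMF, 2.04-fold lower with no overlap (adjusted p = 0.000452, edgeR). Cldn3, a sealing claudin often abundant in ovarian carcinoma, measured 74.8, 99.8 and 57.0 FPKM in ID8 and 23.8, 15.8 and 23.1 FPKM in KMF. Its spread within ID8 was wide, yet the lowest ID8 library stood above the highest KMF library, a 3.60-fold difference (log2 fold change -1.85 ± 0.24 SE, adjusted p = 0.000621, edgeR).

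Cldn15, a claudin that forms cation channels (ENSMUSG00000001739, chromosome 5, 136966616 to 136975858), had the largest difference among the fitted claudins with a mean above 1 FPKM. It measured 6.08, 7.27 and 3.36 FPKM in ID8 and 0.201, 0.114 and 0.0950 FPKM in KMF, 40.2-fold lower (log2 fold change -5.33 ± 0.44 SE, adjusted p = 7.91e-05, edgeR). Cldn2, a further channel-forming claudin, was 3.01-fold lower (1.81 ± 0.374 to 0.586 ± 0.133 FPKM, adjusted p = 0.00213, edgeR). Cldn11, which seals myelin and the testis barrier, had 27, 23 and 26 counts in the ID8 libraries and 1 count in each KMF library, a depth-scaled ratio of 25.5 (95% exact interval 8.41 to 127).

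Cldn12 and Jam2, named after their values were seen, were the members of this group that differed least. Cldn12 was 13.9 ± 2.15 FPKM in ID8 and 9.50 ± 0.262 FPKM in KMF (adjusted p = 0.00921, edgeR), a call lost with passage as a covariate (adjusted p = 0.226; 0.000313 to 0.226 over all alternatives). Jam2, junctional adhesion molecule B, was 20.8 ± 3.35 and 10.96 ± 4.25 FPKM (adjusted p = 0.0422, edgeR). The Jam2 call was lost without any 1 of the ID8 replicates or without KMF replicate 1 (adjusted p 0.0629 to 0.115; 0.0038 to 0.209 over all alternatives). It was also lost with the replicate number as a block and with passage as a covariate. Cldn10 was too low to be fitted, with means of 0.427 FPKM in ID8 and 0.0703 FPKM in KMF. F11r exceeded Cldn3 by 2.30 to 5.51 times in ID8 libraries and by 5.19 to 7.70 times in KMF libraries, ranges that overlap.

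Of the 5 listed cadherins 3 were fitted, and these 3 were lower in KMF (against 47.5% of all fitted genes). Only Cdh2 had at least 10 counts in every library. Cdh22 and Cdh23 could pass the filter through ID8 alone, so no conclusion on cadherins as a group is drawn from this count. Cdh2, N-cadherin, carried 96.4% of the summed FPKM of the listed cadherins in ID8 and 98.5% in KMF. It measured 19.7, 21.7 and 17.3 FPKM in ID8 and 7.21, 8.05 and 5.53 FPKM in KMF, 2.76-fold lower with no overlap (log2 fold change -1.46 ± 0.16 SE, adjusted p = 0.000285, edgeR). The other cadherins were scarce in both lines. Cdh22 was 0.328 ± 0.0702 FPKM in ID8 and 0.0904 ± 0.0686 FPKM in KMF (adjusted p = 0.045, edgeR), a call lost without ID8 replicate 1, ID8 replicate 2 or any 1 of the KMF replicates (adjusted p 0.0592 to 0.125; 0.0181 to 0.125 over all alternatives). Cdh23, a cadherin of hair cell tip links, had 95 counts in ID8 and 6 in KMF, a ratio of 16.0 (95% exact interval 7.07 to 44.6). Cdh10 and Cdh18, neuronal cadherins, were not fitted, with ratios of 26.2 (6.90 to 222) and 27.2 (4.48 to 1114) of ID8 to KMF, and the 52 ID8 counts of Cdh10 came as 24, 28 and 0 from replicates 1 to 3, so that its FPKM overlapped between the lines.

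**Figure D3:**
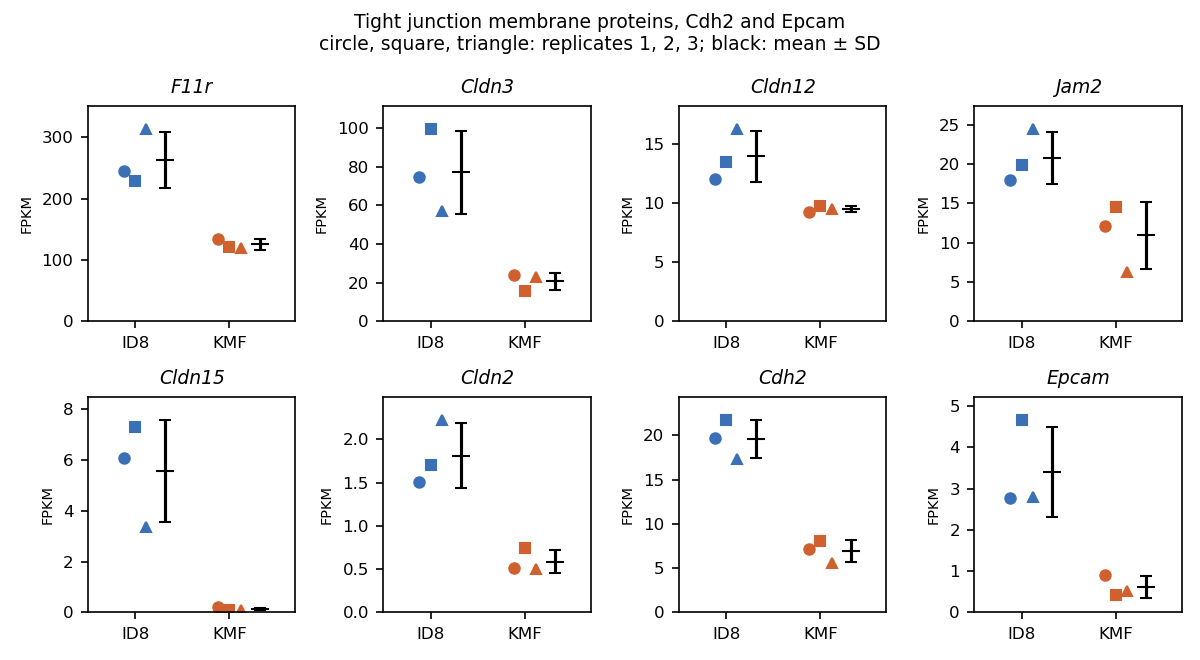
FPKM (vertical axes, linear from 0) of 6 tight junction membrane genes, Cdh2 and Epcam in each library of ID8 (blue) and KMF (orange), with circle, square and triangle for replicates 1, 2 and 3 and black bars for mean ± SD. In all 8 panels the 3 KMF libraries lie below the 3 ID8 libraries.

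Protocadherins are cadherin relatives with weak homophilic adhesion. Of 4 listed, 3 were fitted, with 2 higher (against 45.4% of all fitted genes) and 1 lower in KMF (against 47.5%). Pcdh1, a protocadherin of epithelia, measured 1.79, 2.82 and 1.74 FPKM in ID8 and 15.0, 11.6 and 11.4 FPKM in KMF, 6.13-fold higher (log2 fold change 2.62 ± 0.22 SE, adjusted p = 8.76e-05, edgeR). Pcdh19 was 2.23-fold higher (1.80 ± 0.279 to 3.90 ± 0.208 FPKM, adjusted p = 0.000285, edgeR). Pcdh17, whose upstream sequence is printed above, measured 3.10, 2.63 and 1.07 FPKM in ID8 and 0.352, 0.296 and 0.272 FPKM in KMF, 7.21-fold lower (log2 fold change -2.85 ± 0.39 SE, adjusted p = 0.000922, edgeR). By mean FPKM, the most abundant listed protocadherin was Pcdh17 in ID8, with 35.5% of their summed FPKM, and Pcdh1 in KMF, with 74.9%. Within ID8, Pcdh17 ranked first in replicate 1 only. Pcdh1 was highest in ID8 replicate 2 (2.82 FPKM) and Pcdh19 in ID8 replicate 3 (2.12 FPKM). Pcdh9 was too low to be fitted, at 0.200 ± 0.0826 FPKM in ID8 and 0.0380 ± 0.0235 FPKM in KMF.

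The nectins showed a change of balance between 2 family members. Pvrl1, nectin 1, measured 10.5, 11 and 12.6 FPKM in ID8 and 34.1, 33.2 and 34.4 FPKM in KMF, 3.06-fold higher (log2 fold change 1.61 ± 0.08 SE, adjusted p = 1.4e-05, edgeR). Pvrl2, nectin 2, which is also a ligand of receptors on lymphocytes, measured 68.3, 64.6 and 65.0 FPKM in ID8 and 44.5, 43.8 and 46.4 FPKM in KMF (log2 fold change -0.52 ± 0.06 SE, adjusted p = 0.000532, edgeR). Pvrl2 stayed above Pvrl1 in every library, by 5.15 to 6.51 times in ID8 and by 1.31 to 1.35 times in KMF. Pvrl3, nectin 3, the usual partner in trans of nectins 1 and 2, was not fitted, with 57 counts in ID8 and 1 in KMF (ratio 57.4, 95% exact interval 9.90 to 2308).

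Both listed Cadm genes, immunoglobulin-type adhesion molecules, were lower in KMF. Cadm4 measured 13.6, 16.8 and 16.5 FPKM in ID8 and 5.49, 4.01 and 4.11 FPKM in KMF, 3.35-fold lower (log2 fold change -1.75 ± 0.16 SE, adjusted p = 0.000148, edgeR). Cadm1, described as a tumor suppressor in lung cancer, was 28.3 ± 0.697 FPKM in ID8 and 15.0 ± 3.35 FPKM in KMF (adjusted p = 0.00236, edgeR).

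Of the single receptors, Epcam and Alcam were lower and Mcam was higher. Epcam, an epithelial adhesion molecule whose upstream sequence with 2 E-box matches is printed above, measured 2.76, 4.67 and 2.81 FPKM in ID8 and 0.915, 0.424 and 0.517 FPKM in KMF, 5.38-fold lower (log2 fold change -2.43 ± 0.37 SE, adjusted p = 0.00141, edgeR). Alcam (CD166) was 1.62-fold lower (29.1 ± 2.46 to 17.4 ± 0.501 FPKM, adjusted p = 0.000344, edgeR). Mcam (CD146), first described in melanoma, measured 0.783, 0.527 and 0.495 FPKM in ID8 and 3.26, 2.88 and 2.69 FPKM in KMF, with no overlap (log2 fold change 2.32 ± 0.23 SE, adjusted p = 0.000201, edgeR).

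The pair of Amigo genes, leucine-rich repeat adhesion molecules, differed in opposite directions. Amigo1 was 4.26-fold higher in KMF (1.07 ± 0.0979 to 4.42 ± 0.754 FPKM, adjusted p = 6.74e-05, edgeR) and Amigo2 was lower (6.97 ± 0.720 to 3.79 ± 0.112 FPKM, adjusted p = 0.00146, edgeR), so that their sum was 8.03 ± 0.626 FPKM in ID8 and 8.22 ± 0.781 FPKM in KMF. Gjb2, a connexin, which forms gap junctions, was not fitted and had 21 counts in ID8 and 1 in KMF (ratio 21.2, 95% exact interval 3.40 to 875), with FPKM that overlapped between the lines.

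Tetraspanins had the highest summed FPKM of the role groups, 708 ± 21.2 in ID8 and 943 ± 1.60 in KMF. All 12 listed members were fitted, of which 6 were higher in KMF (against 45.4% of all fitted genes), 5 were lower (against 47.5%) and 1 was not called, shares near those of all fitted genes. Cd9, which associates with integrins in the membrane (ENSMUSG00000030342, chromosome 6, 125460266 to 125494791), measured 352, 358 and 363 FPKM in ID8 and 529, 508 and 525 FPKM in KMF. It was 1.50-fold higher (log2 fold change 0.58 ± 0.07 SE, adjusted p = 0.000343, edgeR) and was the most abundant member in both lines. Tspan4 measured 102, 107 and 113 FPKM in ID8 and 143, 138 and 131 FPKM in KMF, again without overlap (adjusted p = 0.00402, edgeR). Tspan1 was 2.21-fold higher (7.69 ± 0.378 to 16.6 ± 3.23 FPKM, adjusted p = 0.000827) and Tspan17, of the group that carries the protease ADAM10 to the surface, was 26.8 ± 1.39 and 37.9 ± 2.10 FPKM (adjusted p = 0.00126), both by edgeR.

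The 3 tetraspanins with the lowest means in both lines, Tspan2, Tspan6 and Tspan11, were lower in KMF, and Tspan11 had the largest difference of any fitted member. Tspan11 (ENSMUSG00000030351, chromosome 6, 127887589 to 127953031) measured 5.19, 3.66 and 7.40 FPKM in ID8 and 0.110, 0.0408 and 0.0355 FPKM in KMF, 86.7-fold lower (log2 fold change -6.44 ± 0.43 SE, adjusted p = 3.74e-05, edgeR), and 135-fold lower without KMF replicate 1. Its neighbour Tspan9, on the same chromosome with a gap of 0.00836 megabases, is named after its values were seen. Tspan9 was 37.4 ± 5.67 FPKM in ID8 and 22.4 ± 2.87 FPKM in KMF (adjusted p = 0.00571, edgeR). Tspan6 measured 1.73, 2.53 and 0.839 FPKM in ID8 and 0.264, 0.147 and 0.0682 FPKM in KMF, 10.7-fold lower (adjusted p = 0.00276, edgeR). Tspan2, known from oligodendrocytes, was 1.23 ± 0.222 and 0.486 ± 0.118 FPKM (adjusted p = 0.00582, edgeR).

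The remaining tetraspanins are named after their values were seen. Tspan3 was 98.2 ± 3.38 FPKM in ID8 and 135 ± 5.44 FPKM in KMF (adjusted p = 0.00107, edgeR). Tspan14 was 13.6 ± 1.42 and 17.7 ± 2.27 FPKM (adjusted p = 0.024, edgeR), a call lost without ID8 replicate 1, ID8 replicate 2, KMF replicate 2 or KMF replicate 3 (adjusted p 0.0533 to 0.0942; 0.00811 to 0.0942 over all alternatives). The FPKM of Tspan13 and Tspan32 overlapped between the lines. Tspan13 was 26.3 ± 8.69 FPKM in ID8 and 42.5 ± 12.0 FPKM in KMF (adjusted p = 0.0816, edgeR), and it was called without ID8 replicate 2 (adjusted p = 0.0233) or without KMF replicate 1 (adjusted p = 0.0324; 0.0233 to 0.789 over all alternatives). Tspan32 was 24.3 ± 8.57 and 11.6 ± 4.03 FPKM (adjusted p = 0.0354, edgeR), a call lost without ID8 replicate 1, ID8 replicate 2, KMF replicate 1 or KMF replicate 2 (adjusted p 0.102 to 0.124; 0.00197 to 0.124 over all alternatives).

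**Figure D4:**
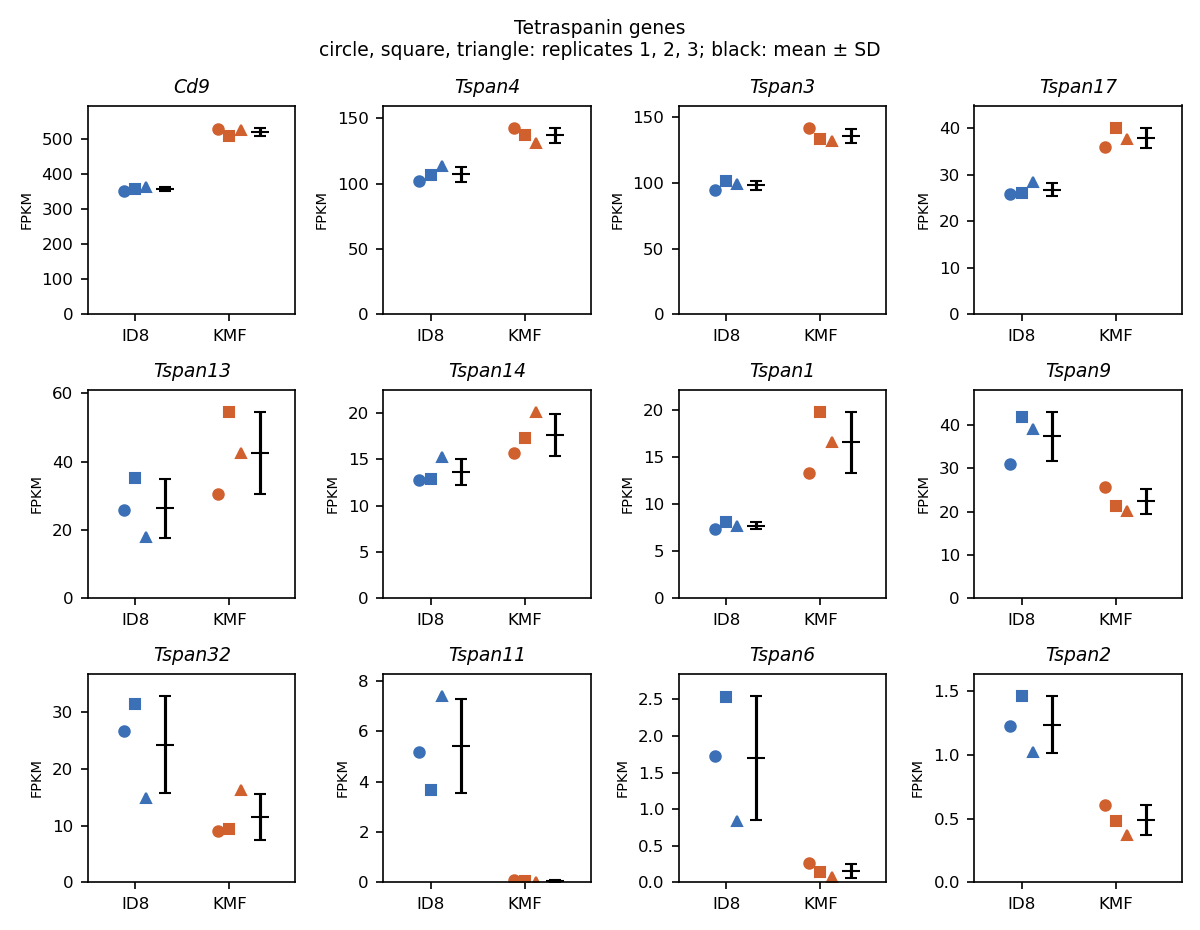
FPKM (vertical axes, linear from 0, scaled for each gene) of the 12 tetraspanin genes in each library of ID8 (blue) and KMF (orange), with circle, square and triangle for replicates 1, 2 and 3 and black bars for mean ± SD. The abundant Cd9, Tspan4 and Tspan3 are higher in every KMF library, Tspan11, Tspan6 and Tspan2 are lower in every KMF library, and Tspan13 and Tspan32 overlap.

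In all, 8 members could not be fitted because of low counts (Cdh10, Cdh18, Cldn10, Gjb2, Itga11, Itgal, Pcdh9 and Pvrl3). All 8 had a lower mean FPKM in KMF, and their highest mean in ID8 was 0.427 FPKM. Tested without the filter, edgeR called all 8 lower (against 48.3% of all listed genes), and DESeq2 called 6 (against 50.6%), leaving out Itga11 (adjusted p = 0.0566) and Gjb2 (adjusted p = 0.0545). Genes this scarce are listed only if already called, and these 8 had few counts in KMF. The shares of all listed genes are therefore not a like comparison, and no conclusion on direction is drawn from these calls.

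Members on neighbouring stretches of a chromosome did not always differ the same way. On chromosome 9, Pvrl1 and Mcam lie 0.327 megabases apart and both were higher in KMF, while Cadm1, a further 3.39 megabases away, was lower. On the X chromosome Pcdh19, higher in KMF, and Tspan6, lower, lie 0.202 megabases apart. Cldn3 and Cldn15, both lower, lie 1.98 megabases apart on chromosome 5. All 55 members overlap their position in GENCODE M21. Parts of some members are shared with a gene on the opposite strand, including 13.4% of the exon bases of Tspan4 (with Chid1), 11.4% of Itgb1bp1 (with Asap2), 10.7% of Cd9, 8.59% of Itgb3bp (with Pgm1), 7.66% of Itgb4 and 5.17% of Dsp, and without knowledge of strand in the counting their reads cannot be told apart there.

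Partners of these receptors, most of them cytoplasmic, were read from 5 lists of adaptors, linkers and scaffolds with 97 genes, 51 of them in the table and 50 fitted. By edgeR, 25 were higher in KMF (against 45.4% of all fitted genes), 22 were lower (against 47.5%) and 3 were not called. Their median log2 fold change was 0.31. As among the members, a gene low in 1 line could pass the filter through the other line alone. Integrin adaptors (21 of 40 listed and fitted) were higher in 11 (against 45.4% of all fitted genes) and lower in 9 (against 47.5%), a division near that of all fitted genes. Parvb and Tgfb1i1 could pass the filter through ID8 alone. Git1, Lims1, Nedd9, Tns3 and Zyx, named after their values were seen, lost the call without ID8 replicate 1, ID8 replicate 2 or KMF replicate 3, each of which left 4 lower. Parvb, beta-parvin, which links integrin-linked kinase to actin, was 1.11 ± 0.116 FPKM in ID8 and 0.0361 ± 0.0232 FPKM in KMF (log2 fold change -4.84 ± 0.41 SE, adjusted p = 9.08e-05, edgeR), and Tgfb1i1 (Hic-5), a paxillin relative, was 4.90-fold lower (adjusted p = 0.00344, edgeR). Tln2, talin 2, which activates integrins, was 1.76 ± 0.431 and 3.56 ± 0.885 FPKM (adjusted p = 0.00799, edgeR), a call lost with passage as a covariate (adjusted p = 0.127; 0.000141 to 0.127 over all alternatives). Vcl, vinculin, which joins talin and alpha-catenin to actin, was higher by 0.47 on the log2 scale (34.3 ± 1.03 to 46.1 ± 1.67 FPKM, adjusted p = 0.0012, edgeR).

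Desmosome and hemidesmosome linkers (6 of 8 fitted) were higher in 5 (against 45.4% of all fitted genes) and lower in 1 (against 47.5%). Krt14 could pass the filter through KMF alone, so no conclusion on the list is drawn from this count. Krt14, a basal epithelial keratin to which such junctions attach, measured 0.160, 0.195 and 0.0918 FPKM in ID8 and 51.4, 21.4 and 23.9 FPKM in KMF (log2 fold change 7.78 ± 0.52 SE, adjusted p = 3.66e-05, edgeR). All 3 KMF libraries were far above ID8, with replicate 1 above the others. Evpl, envoplakin, was 3.27-fold higher (6.71 ± 0.957 to 21.4 ± 1.08 FPKM, adjusted p = 3.22e-05, edgeR). Col17a1, a transmembrane collagen that joins Itga6 and Itgb4 in hemidesmosomes, went the other way, 7.36-fold lower (3.45 ± 0.323 to 0.458 ± 0.110 FPKM, adjusted p = 4.13e-05, edgeR).

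Tight junction scaffolds (14 of 25 fitted) were lower in 9 (against 47.5% of all fitted genes), higher in 3 (against 45.4%) and not called in 2. Their median log2 fold change was -0.74. Marveld2 could pass the filter through ID8 alone and Tjp3 through KMF alone, so no conclusion on the list is drawn from this count. Pard6g, a polarity scaffold, was 2.18 ± 0.911 FPKM in ID8 and 0.441 ± 0.247 FPKM in KMF (adjusted p = 0.00683, edgeR), and Marveld2, tricellulin, was 0.253 ± 0.0879 and 0.0244 ± 0.0308 FPKM (8.40-fold lower, adjusted p = 0.0122, edgeR). Marveld2 was 28.2-fold lower without KMF replicate 3 and not called without KMF replicate 2 (adjusted p = 0.0517; 0.00462 to 0.0912 over all alternatives). Tjp3 (ZO-3) was 24.4-fold higher in KMF (0.0593 ± 0.0126 to 1.43 ± 0.551 FPKM, adjusted p = 0.000159, edgeR), a fold that rests on 4, 5 and 5 counts in ID8. Mpdz, a multi-PDZ scaffold of claudins, was 2.19-fold higher in KMF (adjusted p = 0.000119, edgeR). Tjp1 (ZO-1) was 29.6 ± 4.35 FPKM in ID8 and 35.1 ± 1.95 FPKM in KMF and not called (adjusted p = 0.0839, edgeR). It was called without ID8 replicate 1 (adjusted p = 0.02; 0.02 to 0.899 over all alternatives) and with adjustment over the listed genes alone.

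Of the catenins and nectin adaptors only 3 of 12 were fitted. Lmo7, which links afadin and alpha-actinin at adherens junctions, was 2.35-fold higher in KMF (14.4 ± 1.18 to 32.9 ± 3.06 FPKM, adjusted p = 5.65e-05, edgeR). Mllt4 (afadin), the nectin adaptor, was 22.8 ± 4.37 and 29.4 ± 2.06 FPKM (adjusted p = 0.0418, edgeR) and was not called without ID8 replicate 2, ID8 replicate 3 or any 1 of the KMF replicates (adjusted p 0.0506 to 0.133; 0.00505 to 0.587 over all alternatives). Ctnnd1 (p120-catenin), which keeps cadherins at the surface, was 12.0 ± 1.26 and 8.54 ± 1.31 FPKM (adjusted p = 0.0246, edgeR) and was not called without ID8 replicate 1, ID8 replicate 3, KMF replicate 2 or KMF replicate 3 (adjusted p 0.0602 to 0.106; 0.00478 to 0.106 over all alternatives).

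ERM proteins and partners of the hyaluronan receptor Cd44 (6 of 12 fitted) were higher in 4 (against 45.4% of all fitted genes) and lower in 2 (against 47.5%). Hmmr, a hyaluronan receptor also found at the mitotic spindle, was 3.69-fold higher in KMF (10.1 ± 3.34 to 36.4 ± 4.02 FPKM, adjusted p = 0.000624, edgeR), and Has1, a hyaluronan synthase, was 2.95-fold higher (adjusted p = 0.00184, edgeR). Ezr, ezrin, which links membrane receptors to actin, was 1.73-fold lower (adjusted p = 0.00218, edgeR), and its scaffold Slc9a3r1 was 53.2 ± 2.49 FPKM in ID8 and 31.6 ± 3.71 FPKM in KMF (adjusted p = 0.0008, edgeR). Cd44 itself, Tln1, Pxn and Ctnna1 are outside the table and were not analysed here.

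**Figure D5:**
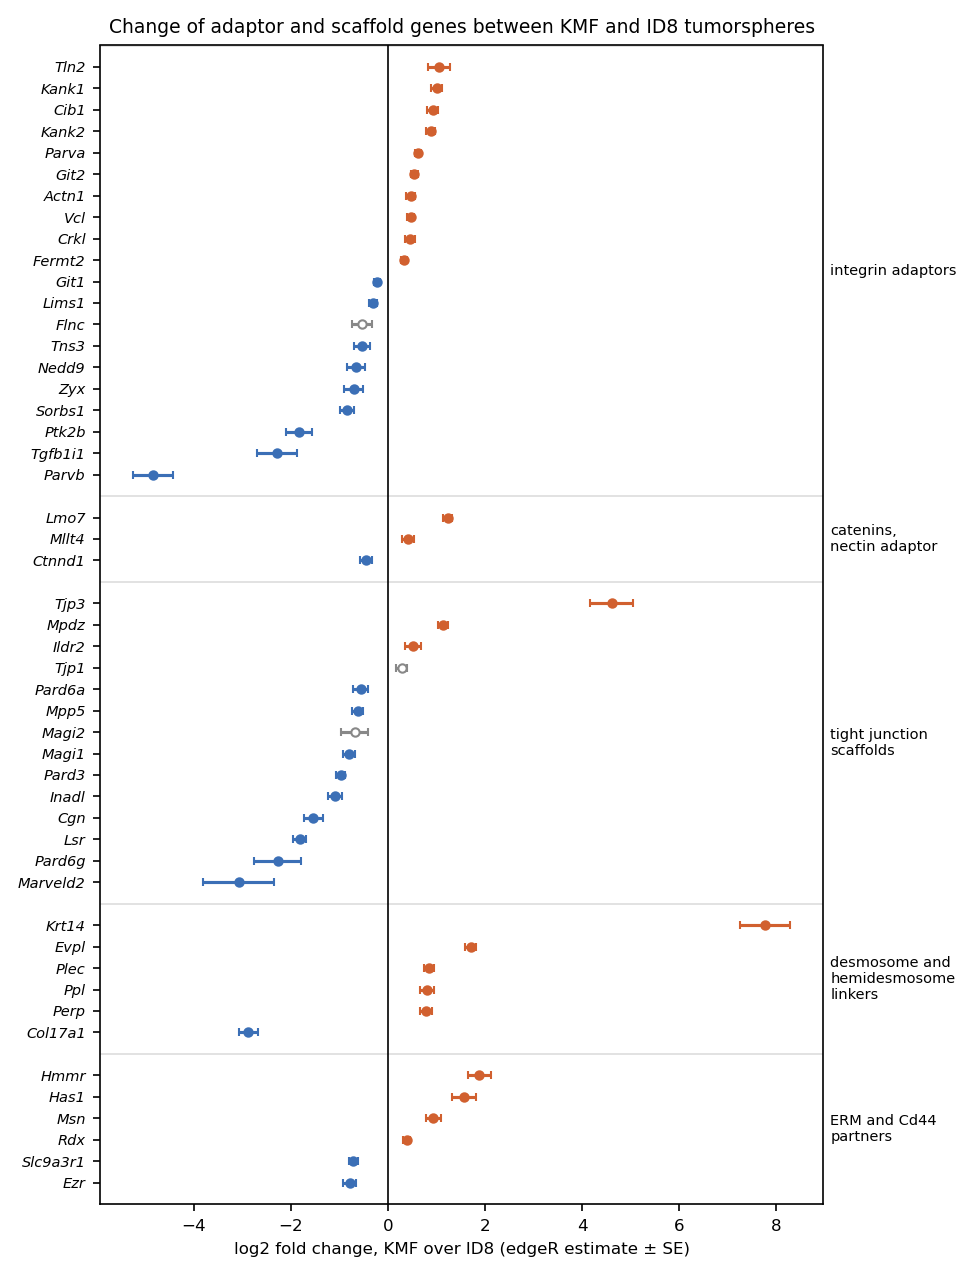
Log2 fold change of KMF over ID8 (horizontal axis, edgeR, bars are standard errors, 3 libraries of each line) for fitted adaptor and scaffold genes, grouped by list. Orange points are called higher in KMF, blue points called lower and open grey points not called. Desmosome and hemidesmosome linkers lie above 0 in 5 of 6 cases, and tight junction scaffolds lie mostly below 0. Krt14 and Tjp3 could pass the filter through KMF alone, and Parvb, Tgfb1i1 and Marveld2 through ID8 alone.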

How the data were processed

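RNA of 5-day tumorspheres was measured in 6 libraries, 3 of ID8 and 3 of KMF. Libraries were poly-A selected and sequenced as paired reads. The submitters' processing notes name CASAVA 1.8, STAR 2.5, DESeq2 and the mouse build mm10, whereas the study's methods name TopHat2 as the mapper. The counting tool, annotation release and use of strand are not given in the sources used here. The deposited table holds raw counts for each gene and library. Beside them stand FPKM values, for which the authors scaled counts to gene length and library total. Its columns of the authors' own comparison (mean signal of each line, log2 fold change, p-value and adjusted p-value) were used only to recover size factors and the number of genes tested, and their findings are not reported. The largest adjusted p-value in the deposited table was 0.0499, so it holds only genes already called, of 17359 tested. A further 14 symbols that had become dates were restored from gene identifiers.

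Library totals (23108407 to 33212313 fragments) were recovered from counts, FPKM and lengths. A floor of 3 counts corresponded to 0.0903 to 0.13 CPM. Counts were fitted on the whole table with edgeR 4.0.16 in R 4.3.3 (filterByExpr, TMM, glmQLFit, glmQLFTest, two-sided, no covariate, since the study compared the lines without one). P-values were adjusted by Benjamini-Hochberg over 17359 genes, ranking unlisted genes last, and genes under 0.05 are termed called. SE is the log2 fold change divided by the square root of its F statistic. Members with at most 3 counts in every library of a line have a ratio of total counts with a 95% exact binomial interval, which covers counting error only. Tested on simulated counts of 7320 genes, where 200 carried a change of 1 log2 unit, edgeR recovered 96% of those 200 and called 6 others. These 200 were drawn from genes that were not scarce, all genes had the same fixed dispersion, and the rest were unchanged. In the deposited table most genes differ and some members are scarce, so these figures do not carry over to the members. Replicates differed beyond sampling noise (chi-square per degree of freedom at least 19.3), so none is a duplicate. DESeq2 1.42.0 and limma 3.58.1 served as alternatives, beside other scalings, filters, a replicate block, a passage covariate and leaving out each library. Promoter sequences are from RefSeq, and motif counts of members used the RefSeq start nearest to the listed start of each gene. The share of all promoters was taken over every start, without keeping 1 for each gene.

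Members and lists were chosen with earlier results of these data known. In role groups of up to 6 members every member is named. In larger groups, the 3 called members with the largest change in each direction (mean FPKM of at least 1 in a line) and the 2 most abundant in each line are named, with members at 3 counts or fewer, and other names are marked. Of each partner list, the 2 largest changes in each direction are named, with Tln1, Vcl, Pxn, Ctnna1, Ctnnd1 and Tjp1 where listed. A few genes that these rules would name are counted but are not reported here by name or drawn in the plots.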

Additional observations from a re-analysis of the deposited data

How the results depend on the processing

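Over 18 alternatives, no fitted member and no partner gene reversed direction. Of the 47 fitted members, 37 kept their side of the threshold in every alternative that gave a value, 9 lost the call in 48 values and 1, Tspan13, gained it in 5. With limma on log2(FPKM + 1), a scale that understates changes of low genes, 11 members were at least 2-fold lower in place of 19, and 9 were at least 2-fold higher in place of 11. With at least 10 counts required in every library, 13 were at least 2-fold lower and 11 higher (21 and 18 at any size). At an FPKM threshold of 2, 5 members passed in KMF alone, and at 0.5 none did (0), in place of 2 at 1. Leaving out each library in turn gave 16 to 18 members higher, 24 to 30 lower, 11 to 12 at least 2-fold higher and 17 to 22 at least 2-fold lower, and among the partner lists 23 to 25 higher and 15 to 21 lower. It gave 8 to 9 members above 1 FPKM in ID8 alone, 2 in KMF alone and 33 to 34 in both lines. Replicate numbers did not pair the samples, since deviations of same-numbered libraries correlated at 0.08, -0.13 and 0.09. With the replicate number as a block, 18 members were higher and 24 lower, 11 and 17 of them at least 2-fold, and 25 partner genes were higher and 20 lower. Passage as a covariate left 16 members higher and 23 lower. Upper quartile scaling shifted the median over all genes by -0.11 (log2). Depth limits the scarcest members, of which 8 had too few counts to be fitted.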

Other observations

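Ligands of integrins and partners of tetraspanins were read from 2 further lists. Of 17 soluble and matrix ligands, other than the collagens and laminins, 4 were fitted, 1 higher (against 45.4% of all fitted genes) and 3 lower in KMF (against 47.5%) by edgeR. Of the 3 lower, Tnc (tenascin C) and Nid1 (nidogen 1) lost the call without ID8 replicate 1, ID8 replicate 2, KMF replicate 2 or KMF replicate 3 (adjusted p 0.0663 to 0.121 and 0.0515 to 0.0942 by edgeR). Leaving out ID8 replicate 1 or ID8 replicate 2 left 1 lower. Nid1 could pass the filter through ID8 alone. Spp1, osteopontin, which binds several integrins, was 344 ± 15.4 FPKM (SD, n = 3 libraries) in ID8 and 761 ± 120 FPKM in KMF (2.28-fold higher, adjusted p = 0.000282, edgeR). Thbs1, thrombospondin 1, was 11.2 ± 0.698 FPKM in ID8 and 1.50 ± 0.483 FPKM in KMF (7.29-fold lower, adjusted p = 5.2e-05, edgeR). Of 11 tetraspanin partners, 5 were fitted, of which 3 were higher and 2 were not called, where 92.9% of all fitted genes were called. Here too a gene scarce in ID8 could pass the filter through KMF alone. Ptgfrn, which binds Cd9 and Cd81 in the membrane, measured 16.9, 21.1 and 18.2 FPKM in ID8 and 75.9, 68.7 and 61.1 FPKM in KMF, 3.76-fold higher (adjusted p = 3.27e-05, edgeR). Cd82, a tetraspanin named outside the Tspan series, was 91.9 ± 11.3 FPKM in ID8 and 139.7 ± 1.41 FPKM in KMF (adjusted p = 0.00105, edgeR). These 6 genes were named after their values were seen.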
